A study of Mus musculus with 4 samples.

Results

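The mitochondrial genome of the mouse is a small circle whose 37 genes were all listed in the deposited gene table, among 54146 mouse genes. They were taken as every gene on chromosome MT, each with a symbol beginning mt-, and comprised 13 coding genes, 2 rRNA genes and 22 tRNA genes. On the plus strand lay 12 coding genes, both rRNA genes and 14 tRNA genes, and on the minus strand mt-Nd6 and 8 tRNA genes. Their newly made RNA was compared between mouse embryonic stem (ES) cells labelled Supt3 WT and Supt3 KO, with 2 libraries each, all grown in LIF and serum. SUPT3 is a core subunit of SAGA, a coactivator of nuclear transcription. All cells had received 4-thiouridine, a uridine analogue by which RNA made during a short pulse can be purified (TT-seq), and labelled S. pombe (fission yeast) transcripts served as a spike-in. The labels describe neither the mutant allele nor the number of clones or cultures, so p-values measure only how much these libraries vary, which may be technical variation.

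Mitochondrial DNA is transcribed by its own polymerase, POLRMT, from promoters in the control region into long RNAs that cover nearly the whole circle. Plus-strand genes belong to the RNA of the heavy-strand promoter and minus-strand genes to that of the light-strand promoter. The tRNAs punctuate these RNAs, and cutting at their ends by RNase P and ELAC2 releases the rRNAs and mRNAs between them. The mRNAs encode core subunits of the respiratory chain and of ATP synthase, and the rRNAs and tRNAs serve their translation inside the organelle.

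The libraries held 13.1 M to 19.4 M mouse counts (M, 1e6) and 3.46 M to 4.84 M S. pombe counts. In both genotypes replicate 1 was the library with fewer mouse counts, so differences are also given within each pair of libraries of like depth. These pairs were seen in the data and are not in the labels. Supt3 itself stood at 147 and 158 CPM in WT against 123 and 140 CPM in KO, with a log2 fold change of -0.22 ± 0.10 (SE, adjusted p = 0.232 in edgeR). As the allele is not described, this level does not check the genotype. CPM here are counts per 1e6 mouse counts after scaling with TMM, the trimmed mean of M-values. Of 12 ES cell markers, 11 were tested, with 2 called lower (Fgf4 and Nanog, beside 4.02% of all genes tested), and the list's summed level was 2413 to 2418 CPM in WT and 1781 to 1982 in KO. Sox2, the marker not tested, had 0 counts in every library. Of 12 fibroblast markers, which feeder cells would carry, 7 stayed under 1 CPM in every library (Col1a2, Col3a1, Col6a3, Postn, Lum, Dcn and Fap). The summed level of that list was 34.1 to 42.7 CPM in WT and 37.9 to 45.9 in KO. Most of it came from Fbn1, at 33.9 and 27.1 CPM in WT and 37.0 and 30.4 CPM in KO. Twist2 stood at 1.98 and 1.46 CPM in WT and 3.55 and 2.52 CPM in KO. Of the 6 fibroblast markers tested none was called, and the fold change was positive in 4 and negative in 2.

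A continuous run of the mitochondrial genome carried almost no counts, and it coincided with a stretch that has a near-identical copy on chromosome 1. The 11 genes from mt-Ts1 to mt-Nd4l held 2 counts in all over the 4 libraries, and 9 of them were at 0 everywhere. They include mt-Co2 and mt-Co3, subunits of cytochrome c oxidase (complex IV), mt-Atp6 and mt-Atp8, subunits of ATP synthase, and mt-Nd3 and mt-Nd4l, subunits of NADH dehydrogenase (complex I). Aligned with blastn against the other GENCODE M21 transcripts, the mitochondrial genome between bases 6390 and 11042 matched 7 pseudogenes on the minus strand of chromosome 1 between 24611535 and 24616197 (mm10). Their identity was 99.71% to 100%, with 2 mismatched bases in 4140. The copies of mt-Co2 (Gm28661), mt-Atp6 (Gm10925), mt-Co3 (Gm28437), mt-Nd4l (Gm10222) and the first 876 bases of mt-Nd4 (Gm28439) had no mismatch. The pseudogenes keep the mitochondrial spacing to within 1 base, and the 5 tRNA genes of the run and most of mt-Atp8 fall in the gaps between them, whose sequence was not read. The treatment of reads that match both places is not stated in the labels.

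One of the 2 mismatches separates mt-Nd3 from its copy, and counts were found on the copy. The first 30 bases of both, at chrM:9459-9488 on the plus strand and chr1:24613090-24613119 on the minus strand (mm10), are shown with the differing base in capitals, because a read can be told apart between the genes there and nowhere else in their 345 aligned bases.
mt-Nd3: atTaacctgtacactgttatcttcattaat
Gm28438: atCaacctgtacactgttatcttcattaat
Counted from the first base of mt-Nd3, the copy differs by T3C. Gm28438 held 201 and 190 counts in WT and 78 and 164 in KO, while mt-Nd3 held 0 in every library. The other mismatch is A1066T in mt-Co1, counted from its first base, and its copy Gm29216 held 0 counts. The reads were not analysed here, so which base the labelled RNA carried is not known from these files. Across all 11 nuclear copies of at least 95% identity the counts were 242 and 214 in WT and 99 and 197 in KO.

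**Figure D1:**
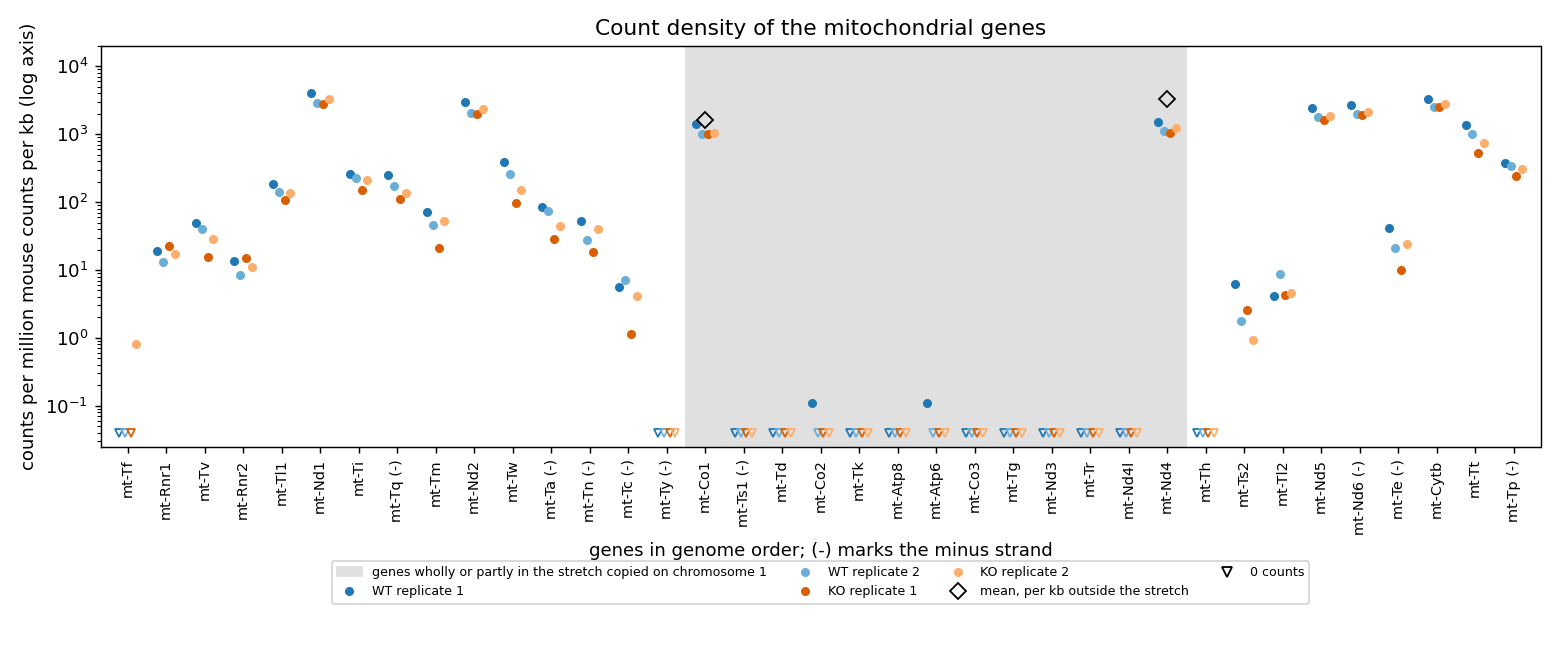
Count density of the 37 mitochondrial genes in genome order, in counts per 1e6 mouse counts per kb on a log axis, with 1 point per library, open triangles for 0 counts and diamonds for mt-Co1 and mt-Nd4 per kb outside the copied stretch. The 11 genes wholly inside the grey stretch hold 2 counts in all, while mt-Co1 and mt-Nd4 at its edges and the coding genes beyond it stand near or above 1000.

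The 7 coding genes that are not wholly inside the copied stretch had the same order of density, over their whole lengths, in all 4 libraries. Per kb of whole gene, mt-Nd1 was highest, followed by mt-Cytb, mt-Nd2, mt-Nd6, mt-Nd5, mt-Nd4 and mt-Co1. Density is given here in counts per 1e6 mouse counts per kb, without TMM scaling. Its mean with SD over the 2 libraries was 3444 ± 852 in WT against 3049 ± 314 in KO for mt-Nd1, a membrane subunit of complex I, and 2925 ± 545 and 2632 ± 190 for mt-Cytb, the mitochondrial subunit of complex III. mt-Nd2 and mt-Nd5, also of complex I, had 2512 ± 648 and 2100 ± 443 in WT against 2169 ± 263 and 1752 ± 163 in KO. The minus-strand gene mt-Nd6, a further subunit of complex I, stood at 2324 ± 505 and 2004 ± 141, between mt-Nd2 and mt-Nd5 of the plus strand. mt-Nd6 exceeded mt-Nd5 per kb in each of the 4 libraries. Neighbours in this order overlapped in their ranges over libraries, except mt-Nd5 and mt-Nd4, whose ratio was 1.53 to 1.60. Within a library the order of neighbours held in 4 of 4 even where the ranges overlapped, with the smallest ratio at 1.01, between mt-Nd4 and mt-Co1.

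The lowest of the counted coding genes, mt-Nd4 and mt-Co1, are those that the stretch reaches into. It holds 876 of the 1378 bases of mt-Nd4 and 483 of the 1545 bases of mt-Co1, the catalytic subunit of complex IV. Over their whole length their mean densities were 1223 and 1128, and over the bases outside the stretch alone they were 3357 and 1641, beside 3246 for mt-Nd1. Per kb outside the stretch mt-Nd4 thus exceeded mt-Nd1, which it did in each of the 4 libraries, so the order above holds for whole lengths. Reads that cross the edge of the stretch count in these values as well, so they are upper values for the bases outside. Another copy, Gm13340 on chromosome 2, covers all of mt-Co1 at 97.605% identity and held 10 to 20 counts per library. Against the limit of 3 counts that a count of 0 allows in a library, the counts of mt-Co3 were at least 9672-fold lower per kb than those of mt-Nd1. As the treatment of reads that match both places is not stated, this sets no limit on mt-Co3 RNA. As RNA content, U made up 27.4% to 30.6% of the 6 counted plus-strand mRNAs and 43.7% of mt-Nd6.

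The rRNA genes were counted far below the mRNAs, although they lie first on the heavy-strand RNA and no copy of at least 95% identity was found for them among the annotated nuclear transcripts. mt-Rnr1, the small-subunit rRNA, had 248 and 243 counts in WT and 286 and 306 in KO. The large-subunit rRNA gene mt-Rnr2 had 291 and 256 in WT and 312 and 321 in KO. Per kb, mt-Nd1 exceeded mt-Rnr1 by 124-fold to 217-fold and mt-Rnr2 by 188-fold to 341-fold. Per the labels' protocols ribosomal RNA was not depleted before library preparation. Why the deposited rRNA counts are low was not tested.

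Of the 22 tRNA genes, 10 had at least 10 counts in every library and 7 had none in any. Of the 7 without counts, 5 lie inside the copied stretch, and the others are mt-Ty and mt-Th. The most abundant was mt-Tt, which encodes the tRNA for threonine and directly follows mt-Cytb, with 1249 and 1295 counts in WT and 469 and 918 in KO. Per kb it reached 0.392 to 0.417 of mt-Cytb in WT and 0.214 to 0.269 in KO. Next came mt-Tp (proline), which faces it on the minus strand. Outside the stretch, the 6 tRNA genes with no further gene of their strand within 50 bases of their 3′ end (mt-Ti, mt-Tq, mt-Tw, mt-Ta, mt-Tt and mt-Tp) held a median of 953 counts over the 4 libraries. The 11 with a gene closer by held a median of 26 and ranged from 0 for mt-Ty and mt-Th to 686 for mt-Tl1. That grouping was made after the counts were seen. The labels do not state how the counting treated overlapping genes. Sox2, a nuclear gene that lies inside Sox2ot on the same strand, had no counts where Sox2ot had 3187 to 6210. Whether the treatment of overlaps bears on the tRNA counts was not tested.

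The share of mitochondrial transcripts among mouse counts did not separate the genotypes. It was 2.11% (95% Wilson interval 2.10% to 2.12%) and 1.53% (1.53% to 1.54%) in WT, and 1.47% (1.47% to 1.48%) and 1.67% (1.66% to 1.67%) in KO. These intervals cover counting error only. WT replicate 1 stood highest, and the other WT library lay between the KO libraries. The difference of KO from WT was -0.20 on the log2 scale, less than the 0.46 between the WT libraries (exact two-sided permutation test, p = 0.667, where 0.333 is the smallest this design allows). It was -0.52 between the replicates 1 and 0.12 between the replicates 2, so the direction was not the same in the pairs of like depth. Without WT replicate 1 it was 0.031, without WT replicate 2 -0.43, and without KO replicate 1 -0.11. In bulk libraries fewer mitochondrial genomes per cell and less RNA made from each cannot be told apart.

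Relative to the spike-in, mitochondrial counts overlapped between the genotypes as well. There were 6.86 and 8.60 mitochondrial counts per 100 S. pombe counts in WT and 3.99 and 8.10 in KO. KO replicate 1 was low and the other 3 libraries lay close together. The difference of -0.43 (log2) compares with 1.02 between the KO libraries (exact two-sided permutation test, p = 0.667). It was -0.78 between the replicates 1 and -0.086 between the replicates 2. Without KO replicate 1 it was 0.077, of the other sign, and without KO replicate 2 it was -0.94, while without WT replicate 2 it was -0.27. The mitochondrial transcripts of the spike-in itself, 36 S. pombe genes by their ID prefix, made up 0.311% and 0.359% of S. pombe counts in WT and 0.396% and 0.381% in KO. Their share was thus higher in both KO libraries than in either WT library, by 0.22 on the log2 scale (p = 0.333 in the same exact test). The spike-in RNA carries no mouse genotype, and the part of that shift in the mouse values was not tested.

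Within the mitochondrial RNA, tRNA counts were lower and rRNA counts higher per coding count in both KO libraries. Per 100 coding counts there were 1.04 and 1.06 tRNA counts in WT and 0.629 and 0.780 in KO. The genotypes did not overlap, and the difference was -0.58 ± 0.16 (log2, pooled SD within genotypes, n = 2 each). It was -0.72 between the replicates 1 and -0.45 between the replicates 2. Per 100 coding counts there were 0.192 and 0.170 rRNA counts in WT and 0.313 and 0.206 in KO, a difference of 0.50 ± 0.31 (log2), again without overlap. It was 0.71 between the replicates 1 and 0.28 between the replicates 2. Without KO replicate 1 the rRNA difference was 0.20, and without KO replicate 2 it was 0.80. For each ratio the exact two-sided permutation test gave p = 0.333, the smallest the design allows. These ratios need no nuclear total, and KO replicate 1 was the extreme library in both.

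The balance of the strands was steady in comparison. Minus-strand genes had 7.37 and 7.46 counts per 100 plus-strand counts in WT and 7.41 and 7.26 in KO, a difference of -0.016 (log2; exact two-sided permutation test, p = 0.667). It was 0.0066 between the replicates 1 and -0.039 between the replicates 2. Nearly all of these are coding counts, with mt-Nd6 at 7.16 and 7.22 counts per 100 plus-strand coding counts in WT and 7.26 and 7.07 in KO. Among the tRNA genes alone there were 35.0 and 37.9 minus-strand counts per 100 plus-strand counts in WT and 44.6 and 42.1 in KO.

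**Figure D2:**
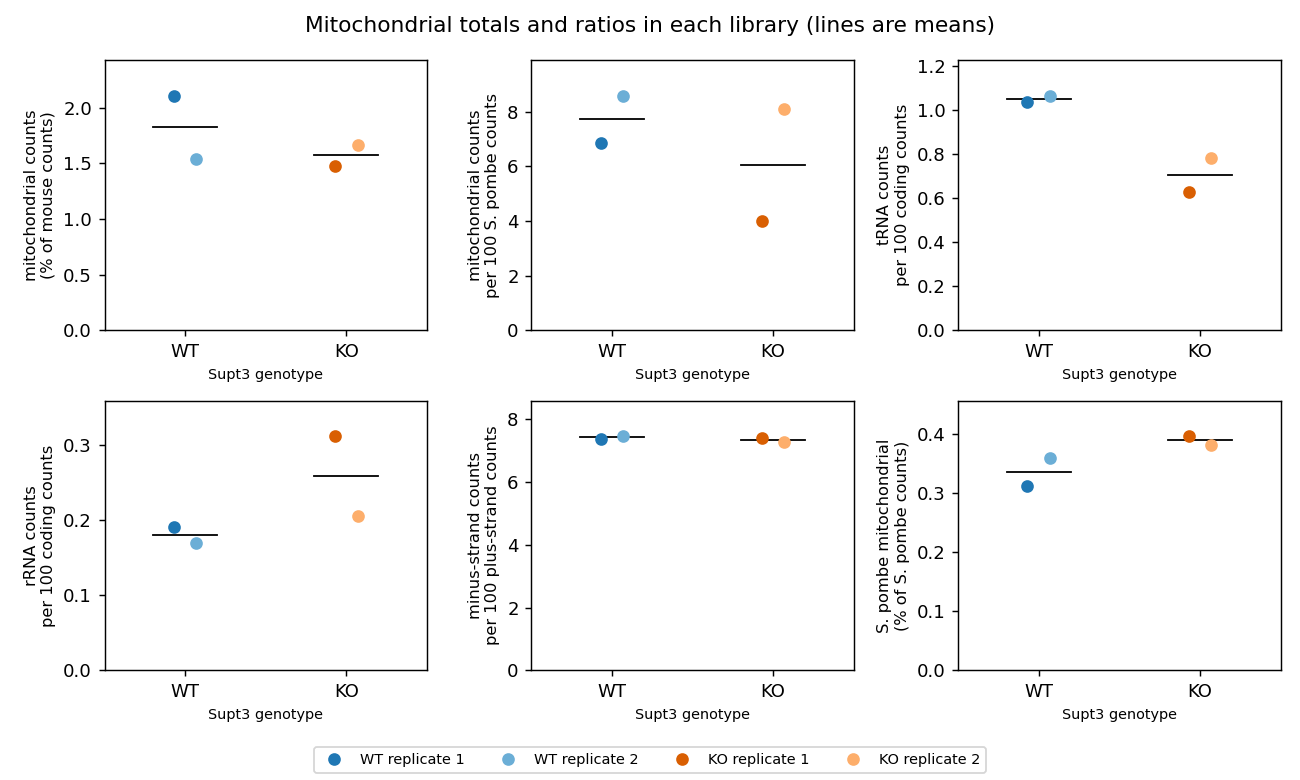
Mitochondrial totals and ratios in each of the 4 libraries, 1 panel per quantity with its unit on the vertical axis starting at 0, points for libraries and lines for the mean of each genotype. tRNA counts per 100 coding counts were 1.04 and 1.06 in WT and 0.629 and 0.780 in KO, while the mitochondrial share of mouse counts overlapped between the genotypes.

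Gene by gene, edgeR's quasi-likelihood test with TMM scaling called 2 mitochondrial genes lower in KO, both tRNA genes, and none higher. Of the 37 genes 20 passed the filter on low counts and were tested, namely 7 coding, 2 rRNA and 11 tRNA genes. Across all 16789 genes tested, 4.02% were called lower and 4.05% higher at a Benjamini-Hochberg adjusted p under 0.05. In edgeR 6 of the 20 members had an unadjusted p under 0.05, a threshold at which the share of all genes was not computed. DESeq2 called the same number of members lower (2, beside 3.28% of its genes) and limma voom 3 (beside 4.08%). Neither called a member higher, where 3.71% and 3.98% of all genes were. Without the filter on low counts 5 of 26 members were lower in edgeR, beside 4.07% of all genes. With WT replicate 1, WT replicate 2, KO replicate 1 or KO replicate 2 left out, 2, 3, 3 and 10 members were lower, beside 4.03%, 2.57%, 5.11% and 7.81% of all genes. The fold change was negative for 18 of the 20, and its median was -0.36 (log2), beside 0.01 over all genes tested. In 8 of the 20, all tRNA genes, both KO libraries lay below both WT libraries, which was so in 26.0% of all genes tested.

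mt-Tw, which encodes the tRNA for tryptophan, had the largest fold change. It lies on the plus strand at chrM:4950-5016, overlaps the end of mt-Nd2 by 2 bases and is followed by 311 bases without a plus-strand gene. mt-Tt lies at chrM:15289-15355, at the 3′ end of the plus-strand genes. Their sequences on the plus strand (GENCODE M21, mm10) are shown as the genes that passed the test, with the anticodon in capitals.
mt-Tw: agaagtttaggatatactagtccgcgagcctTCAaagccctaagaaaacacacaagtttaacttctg
mt-Tt: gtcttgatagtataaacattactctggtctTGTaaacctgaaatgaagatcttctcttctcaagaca
mt-Tw had 358 and 338 counts in WT and 84 and 183 in KO, or 26.2 and 17.6 CPM against 6.22 and 10.3 CPM. The KO libraries lay below both WT libraries, and KO replicate 1 was lowest. The fitted log2 fold change (KO over WT) was -1.38 with an SE of 0.25 (adjusted p = 0.0140 in edgeR). The tRNA gene mt-Tt stood at 91.4 and 67.6 CPM in WT against 34.7 and 51.4 CPM in KO, also without overlap, with a log2 fold change of -0.87 ± 0.19 (adjusted p = 0.0269 in edgeR). Within the pairs of like depth the differences were -2.07 and -0.78 for mt-Tw and -1.39 and -0.39 for mt-Tt.

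Scaling by the spike-in ended both calls. The log2 fold changes were then -1.49 for mt-Tw and -0.995 for mt-Tt (adjusted p = 0.9502 and 0.9999 in edgeR), and the median of all genes tested shifted to -0.23. In that fit 0 members and 0.0953% of all genes were called lower. Scaled to the mitochondrial coding counts instead, which moved the median of all genes to 0.19, mt-Tw was at -1.21 and still passed (adjusted p = 0.0473), and mt-Tt was at -0.69 and did not (adjusted p = 0.490). That fit called 0.780% of all genes lower.

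Further tRNA genes lay near the threshold. mt-Ta (alanine) stood at 5.71 and 5.17 CPM in WT against 1.93 and 3.19 CPM in KO, with a log2 fold change of -1.05 ± 0.27 (adjusted p = 0.0513 in edgeR). mt-Ta passed in limma voom (adjusted p = 0.0477) and not in DESeq2 (adjusted p = 0.0988). mt-Tq (glutamine) stood at 17.7 and 12.6 CPM in WT against 7.63 and 9.97 CPM in KO (-0.76 ± 0.21, adjusted p = 0.0622 in edgeR). For mt-Tv (valine), between the rRNA genes, the levels were 3.37 and 2.82 CPM in WT against 1.04 and 2.02 CPM in KO (-0.96 ± 0.35, adjusted p = 0.134 in edgeR). In these 3 genes the genotypes did not overlap. Without the filter on low counts all 3 passed in edgeR, with an adjusted p of 0.000624 for mt-Ta, 0.000594 for mt-Tq and 0.0211 for mt-Tv. Their log2 fold changes hardly moved in that fit, at -1.04, -0.75 and -0.95. In DESeq2 mt-Tq (adjusted p = 0.0557) and mt-Tv (adjusted p = 0.365) did not pass either. The fold changes of the 11 tested tRNA genes were all negative, with a median of -0.74, and ran from -1.38 for mt-Tw to -0.35 for mt-Tn (asparagine). That median was -1.19 without KO replicate 2. Without KO replicate 1 and without WT replicate 1, mt-Tl2 was tested as well, and the median of the 12 was -0.39 and -0.42. Over the same 11 genes the middle value was -0.26 (mt-Te) without KO replicate 1 and -0.33 (mt-Tp) without WT replicate 1. mt-Tm, mt-Tn and mt-Te overlapped between the genotypes, and at 9 to 68 counts per library their levels were loosely set.

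**Figure D3:**
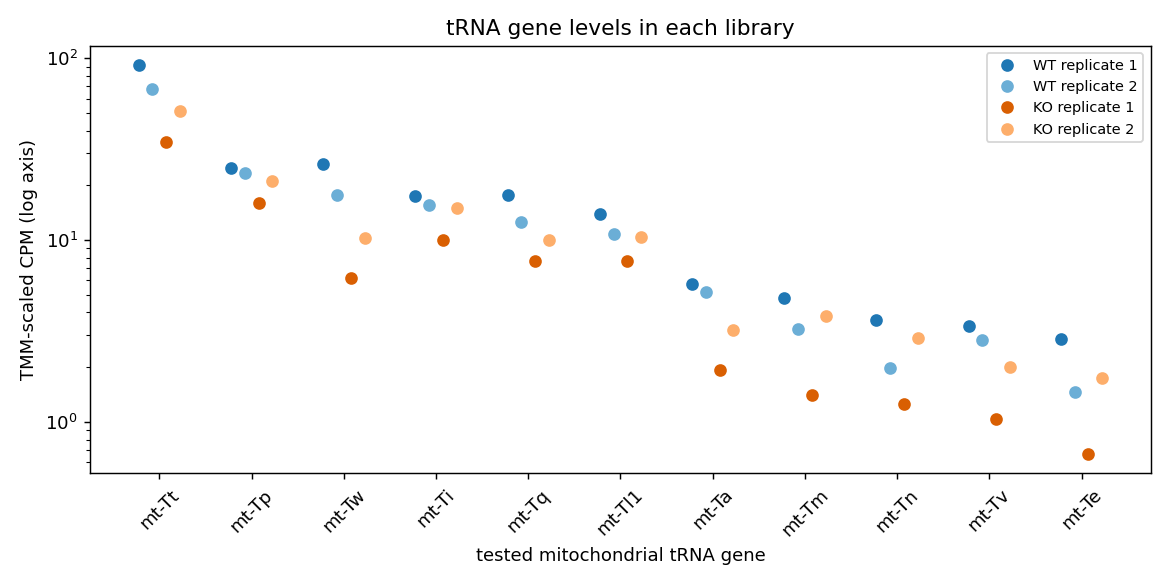
TMM-scaled CPM (log axis) of the 11 tested tRNA genes, ordered by mean level, with 1 point per library. KO replicate 1 is the lowest library for each of the 11, and for mt-Tw, mt-Tt, mt-Ta, mt-Tq and mt-Tv both KO libraries lie below both WT libraries.

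No coding gene passed in edgeR, in DESeq2 or in limma voom, and 0 of the 7 tested had an unadjusted p under 0.05 in edgeR. The most counted was mt-Nd5, a complex I subunit, at 4352 and 3302 CPM in WT against 2896 and 3508 CPM in KO, a log2 fold change of -0.26 ± 0.19 (adjusted p = 0.478 in edgeR). mt-Cytb stood at 3745 and 2943 CPM in WT against 2770 and 3259 CPM in KO (-0.15 ± 0.18, adjusted p = 0.683 in edgeR). mt-Nd1 was at 3829 and 2754 CPM in WT against 2623 and 3223 CPM in KO (-0.17 ± 0.20, adjusted p = 0.673), and mt-Nd2, also of complex I, at 3049 and 2159 CPM and at 1996 and 2518 CPM (-0.21 ± 0.20, adjusted p = 0.598). In each of these genes WT replicate 1 was highest, and the other WT library lay between the KO libraries. The same held for mt-Co1 (2188 and 1589 CPM in WT against 1536 and 1652 CPM in KO, log2 fold change -0.24 ± 0.17, adjusted p = 0.454) and for mt-Nd6 (1376 and 1034 CPM in WT against 958 and 1124 CPM in KO, log2 fold change -0.21 ± 0.16, adjusted p = 0.503 in edgeR). The 7 fold changes lay between -0.26 and -0.15 with a median of -0.21, which was 0.0035 without WT replicate 1, -0.067 without KO replicate 1, -0.40 without WT replicate 2 and -0.33 without KO replicate 2.

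The rRNA genes had the only positive fold changes. mt-Rnr1 stood at 18.1 and 12.7 CPM in WT against 21.2 and 17.1 CPM in KO, overlapping, with a log2 fold change of 0.32 ± 0.19 (adjusted p = 0.371 in edgeR). mt-Rnr2 stood at 21.3 and 13.4 CPM in WT against 23.1 and 18.0 CPM in KO (0.25 ± 0.22, adjusted p = 0.549 in edgeR). Without WT replicate 1 the log2 fold change of mt-Rnr2 was 0.61, and without WT replicate 2 it was -0.055.

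**Figure D4:**
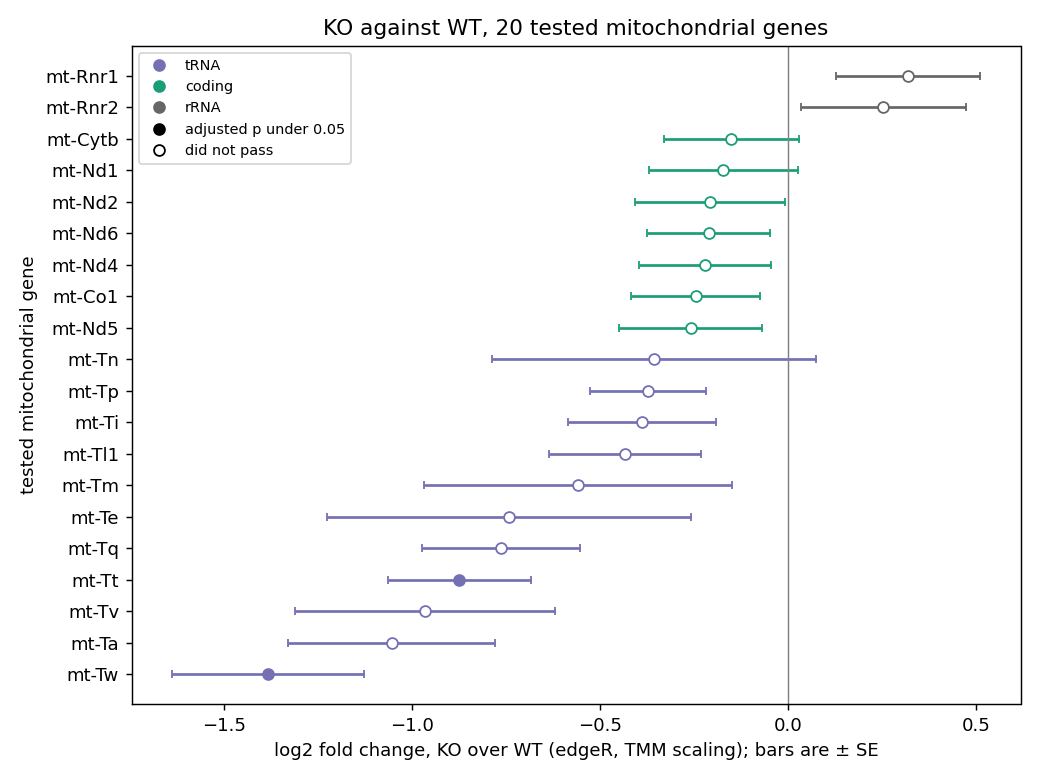
Log2 fold change of KO over WT with its SE for the 20 tested mitochondrial genes, from edgeR with TMM scaling and 2 libraries per genotype, with filled points for an adjusted p under 0.05. The 11 tRNA genes run from -1.38 to -0.35, the 7 coding genes from -0.26 to -0.15, and the rRNA genes stand at 0.25 and 0.32.

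In the authors' deposited table, which scales by the spike-in and shrinks fold changes, 26 mitochondrial genes have a fold change and none has an adjusted p under 0.05. Of 29514 genes with an adjusted p in the authors' deposited table, 8 pass that threshold. mt-Tw is the mitochondrial gene with the lowest unadjusted p in the authors' deposited table (log2 fold change -1.01, p = 0.00965, adjusted p = 0.999).

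Nuclear genes that serve mitochondrial gene expression are read here against all genes tested, of which 4.02% were called lower and 4.05% higher. These shares are for the adjusted p. The share of all genes at an unadjusted p under 0.05 was not computed, so counts before adjustment, here and below, have no background. Among 28 tested genes of mitochondrial transcription and DNA replication, 1 was lower and none higher in edgeR (4 before adjustment, at an unadjusted p under 0.05), and the list's median was -0.01. The called gene was Tefm (chromosome 11, 80136678 to 80142175), the elongation factor of the mitochondrial polymerase, which fell from 29.9 and 29.3 CPM to 19.995 and 21.9 CPM (log2 fold change -0.50 ± 0.12, adjusted p = 0.0334 in edgeR). Tefm did not pass in DESeq2 (adjusted p = 0.0854), without WT replicate 1 (0.0778) or without WT replicate 2 (0.108). Of 47 tested genes for processing, modification and decay of mitochondrial RNA, 1 was lower and none higher, or 3 before adjustment, and the median was -0.03. It was Lrpprc, whose protein binds and stabilises mitochondrial mRNAs. Lrpprc fell from 219 and 233 CPM in WT to 101 and 118 CPM in KO (-1.04 ± 0.11, adjusted p = 0.00156 in edgeR) and lies on chromosome 17 from 84705247 to 84790789.

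Against the same shares of all genes, the 35 tested genes of complex I held 0 calls in edgeR (1 at an unadjusted p under 0.05), 0 in DESeq2 and 0 in limma voom. The most abundant of them, Ndufs4, had 186 ± 0.761 CPM in WT against 171 ± 27.4 CPM in KO (SD over the 2 libraries), and Ndufa10 had 110 ± 4.30 against 110 ± 3.46 CPM. Both encode accessory subunits. Among 40 genes of complexes II to V 1 was lower and none higher (3 before adjustment). It was Cox7a2l, which takes part in joining respiratory complexes into supercomplexes, at 85.7 and 83.8 CPM in WT against 41.4 and 43.7 CPM in KO (-0.99 ± 0.09, adjusted p = 0.00109 in edgeR). Cox7a2l also lies on chromosome 17, from 83501919 to 83514333, near Lrpprc (84705247 to 84790789), whose log2 fold change of -1.04 was similar. Whether these calls are independent of each other was not tested. The list of aminoacyl-tRNA synthetases, which charge mitochondrial tRNAs, also includes Qrsl1, Gatb and Gatc, which are not synthetases. Its 22 genes held 0 calls in edgeR, DESeq2 and limma voom, and 0 before adjustment in edgeR. Fars2, for phenylalanine, had 384 ± 25.8 CPM in WT against 395 ± 61.5 CPM in KO, and Gars, for glycine, 183 ± 2.90 against 199 ± 13.2 CPM. Of 14 regulators of mitochondrial biogenesis 2 were lower and none higher (5 before adjustment), with a median of -0.13. Tfeb, a regulator of lysosomal genes, fell from 44.4 and 50.9 CPM to 26.2 and 31.1 CPM (-0.73 ± 0.12, adjusted p = 0.0101 in edgeR), and lies on chromosome 17 from 47737030 to 47792419. The coactivator gene Ppargc1b fell from 34.6 and 34.4 CPM to 21.9 and 23.0 CPM (-0.62 ± 0.11, adjusted p = 0.0113 in edgeR). With spike-in scaling, and with scaling to the mitochondrial coding counts, none of the 5 nuclear genes called here passed. Their log2 fold changes ran from -1.26 for Lrpprc to -0.72 for Tefm with spike-in scaling, where the median of all genes was -0.23. With scaling to the mitochondrial coding counts, where that median was 0.19, they ran from -0.88 for Lrpprc to -0.32 for Tefm.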

How the data were processed

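The authors deposited mouse and S. pombe gene tables of raw counts, and a comparison table with the mouse counts again, signal values (counts divided by a size factor), log2 fold changes of KO over WT and p-values. The deposited raw counts were equal in both tables (100% of values). Per the submitters' processing notes reads were handled with STAR 2.5.3 (mm10) and HTSeq 0.6.1p1 among other tools, and DESeq2 1.16.1 is named. Not given in the sources used here were the strand setting, the overlap mode and the treatment of multiply mapped reads. The labels name polyA RNA as the molecule and a stranded total RNA kit.

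Counts of all mouse genes were fitted with edgeR 4.0.16 in R 4.3.3 (filterByExpr, minimum count 10, TMM, quasi-likelihood test, no covariate), and Benjamini-Hochberg adjustment ran over 16789 genes. SEs were derived as |log2 fold change| over the root of F. Alternatives were DESeq2 1.42.0, limma 3.58.1 voom, RLE, spike-in and mitochondrial coding scaling, no filter, and each library left out. The edgeR fit was tested on simulated data. Ratios used exact permutation tests over libraries, replicates being numbered in accession order. Differences of a gene between libraries of like depth are on the log2 CPM scale, with 0.5 added to each raw count before scaling. Sequences came from GENCODE M21, whose coordinates matched all 37 genes. Copies were found with blastn 2.17.0 (plus strand, at least 95% identity over at least 100 bases). Anticodons were placed by a search for a 7-base loop, with 3 (mt-Tw) and 4 (mt-Tt) of 5 stem pairs.

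The genes and lists were chosen with earlier results of these data known. Named in full were mitochondrial genes past the threshold in any fit of all 4 libraries, the rRNA genes, mt-Nd6 and the 5 most abundant coding genes. From each nuclear list up to 4 called genes were named, or the 2 most abundant where none was called.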

Additional observations from a re-analysis of the deposited data

How the results depend on the processing

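Of the 20 mitochondrial genes tested in the main fit 2 were called, both lower (beside 4.02% of all genes). Lower calls were 0 of 20 with spike-in scaling (beside 0.0953%) and 1 of 20 with scaling to mitochondrial coding counts (beside 0.780%). Without the low-count filter they were 5 of 26 (beside 4.07%). With a library left out, 3 to 10 of the 20 or 21 genes tested were called in either direction. The 3 without WT replicate 1 were 2 lower and mt-Rnr2 higher (beside 8.19% of all genes in either direction). The 10 came without KO replicate 2, all lower (beside 7.81% of all genes called lower). With a library left out, the log2 fold change ran from -1.80 to -1.08 for mt-Tw and from -1.19 to -0.62 for mt-Tt. Such fits leave 1 library in a genotype, so calls in them do not measure stability. Scaled to mitochondrial coding counts, mt-Cytb (0.052), mt-Nd1 (0.037) and mt-Nd2 (0.0011) turned positive. These genes are part of the sum used for that scaling, which holds coding fold changes near 0, so their sign there is not a result. Leaving out 1 library gave -0.31 to 0.028 for mt-Cytb, -0.39 to 0.080 for mt-Nd1, -0.43 to 0.057 for mt-Nd2, -0.40 to 0.0035 for mt-Nd6 and -0.055 to 0.61 for mt-Rnr2, each turning without a WT library. The difference in mitochondrial share was -0.52 between replicates 1 and 0.12 between replicates 2, and that of minus to plus strand 0.0066 and -0.039. The causes were not tested. RLE scaling and limma voom each called 3 members lower (beside 4.23% and 4.08% of all genes called lower) and DESeq2 called 2 lower (beside 3.28%). The difference in mitochondrial counts per S. pombe count ranged from -0.94 to 0.077 with a library left out. The tRNA median ranged from -1.19 to -0.39, over 11 or 12 tRNA genes tested in each fit. No paired analysis was possible because the labels carry no replicate numbers, and the pairs of like depth were seen in the data. With 1 library left in a genotype, that genotype had no spread of its own. The fit then drew on the remaining pair and on the spread shared over all genes tested. Depth limits the tRNA genes, most of which had few counts.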
